A study of Homo sapiens with 16 samples.

Results

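The genes that set the pace of G1 were followed across knockdowns of imatinib-sensitizing genes in a gastrointestinal stromal tumor (GIST) cell line. They were the D-type cyclins CCND1, CCND2 and CCND3, their kinases CDK4 and CDK6, the E-type cyclins CCNE1 and CCNE2, the inhibitors CDKN1B and CDKN2C, and the retinoblastoma gene RB1. These 10 genes were chosen by symbol, with the low CCND1 of the array titled ZNF429 already known, so that value is given as a description and without a test. Of the 10, 9 had a transcript cluster, the set of probes that is summarized to 1 gene level, on the arrays. Of these, 8 had a cluster of their own, among 14232 genes in the series that did. The CDK4 cluster is shared with TSPAN31, and the expression of CDKN2C was not analysed here because no cluster carried its symbol.

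Cells leave G1 when D-type cyclins bind CDK4 or CDK6 and E-type cyclins bind CDK2, and these kinases phosphorylate the RB1 protein. Unphosphorylated RB1 holds E2F transcription factors in check, and its release lets them transcribe the genes of DNA synthesis, the E-type cyclins among them. CDKN1B (p27) blocks cyclin E-CDK2, and CDKN2C (p18) belongs to the family of INK4 inhibitors that bind CDK4 and CDK6. In GIST cells the mutant KIT receptor drives growth, and loss of CDK inhibitors or of RB1 is known from advanced tumors.

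The 16 arrays (Affymetrix Human Exon 1.0 ST) held RNA of GIST-T1 cells, a tumor line with an activating KIT mutation that was grown in serum-containing medium. Each of 14 arrays held cells given siRNA at 50 nM against 1 gene, and 2 arrays held cells given siCON, a non-silencing siRNA, at the same concentration. The targets were GTF2I (spelled GTF21 in the labels), IGF2R, IGFBP2 and RASSF8, 4 genes outside the zinc finger family, and 10 zinc finger genes, namely ZNF708, ZNF665, ZNF528, ZNF431, ZNF429, ZNF254, ZNF100, ZNF91, ZNF85 and ZNF43. Each array is named here by its target. The siCON arrays are labelled 24 h (siCON 1) and 72 h (siCON 2), but a figure legend of the study gives a later time than 24 h for the first, so their interval is not settled. The time at which the knockdown cells were harvested is stated in neither the labels nor the methods. All cells came from 1 line, each knockdown rested on pooled siRNAs and 1 array, and nothing states that the arrays were separate cultures, so the spread between them may be partly technical. The group of knockdowns is therefore 14 different treatments, and its spread holds their differences.

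Values are log2 expression estimates, on which a difference of 1 is a 2-fold change, and levels of different genes are not compared because probes differ between genes. Of the 14 target genes, 13 had a cluster (most of them shared with other genes), and 11 of these were at their lowest of the 16 arrays on their own array. The exceptions were ZNF100, at 7.46 on its own array, against 7.54 ± 0.333 on the other knockdown arrays (SD, n = 13), and ZNF43, at 9.77, against 10.15 ± 0.370. ZNF708 had no cluster, so the arrays labelled ZNF100, ZNF43 and ZNF708 have no clear check of silencing. The check is also weak for ZNF665, at 3.29 on its own array and 3.46 and 3.48 on the siCON arrays. It is weak too for ZNF528, at 4.54 on its own array and 4.65 or above on the siCON arrays. Both were dim, under the lower quartile of all clusters on their own arrays (6.23 and 6.26). A lowest rank alone says little, since 14% of all clusters were lowest on the ZNF429 array. The cluster that includes ZNF429 stood at 6.65 on the ZNF429 array, against 8.71 ± 0.543 on the other knockdown arrays (SD, n = 13) and 9.14 and 8.97 on the siCON arrays. The GIST markers KIT and ANO1 were bright, at 13.27 ± 0.195 and 12.93 ± 0.144 in the knockdowns (SD, n = 14) and between 12.90 and 13.42 in siCON. Of the markers of other cell types, 2 of 4 epithelial genes (EPCAM and CDH1), 2 of 3 immune genes (PTPRC and CD3E) and 1 of 3 endothelial genes (PECAM1) were below the lower quartile of all clusters on all 16 arrays. The keratins KRT8 and KRT18, the macrophage gene CD68, VWF, CDH5 and the 3 smooth muscle genes were below it on 0 arrays, with KRT8 at 11.55 and KRT18 at 9.86 on average in the knockdowns and 11.04 and 10.38 in siCON. EPCAM passed the test as lower in the knockdowns (limma, adjusted p = 0.0421), at 4.17 ± 0.0903 (SD, n = 14), against 4.39 and 5.50 on the siCON arrays, but was called in only 7 of 21 alternatives. It was lost without siCON 2 (adjusted p = 0.682), without single knockdowns such as GTF2I (adjusted p = 0.0563) and by the methods' own test. The median difference between knockdowns and siCON over all clusters was 0.07, with 0.14 among the dimmest 33.3% of clusters and -0.07 among the brightest 33.3%.

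Compared with siCON, none of the 9 measured members changed across the knockdowns by limma at an adjusted p of 0.05, and 0 was also the count under each alternative tried. At an unadjusted p under 0.05, 1 member lay lower (CCNE2) and 1 higher (CDK6). Over all clusters limma called 0.282% lower and 0.259% higher, and an unadjusted p under 0.05 marked 6.93% lower and 7.77% higher. By sign, 8 of the 9 members averaged below siCON, and the median difference of the 9 was -0.16. Of all clusters 59.4% averaged above siCON, but only 39.4% did in the brightest group of clusters described above. The 8 lower members were all bright, at percentile 83.6 of all clusters or above by mean level. Their sign was thus the more common one at that level. Of the 126 pairs of member and knockdown, 9 lay at least 1 below the siCON mean and 0 at least 1 above it. Over all clusters 1.49% of such pairs lay that far below and 0.672% that far above. CCNE2 accounted for 8 of the 9 pairs, which all use the same siCON mean. The other was CCND1 on the ZNF429 array, the value that chose the gene and array. The count therefore says nothing about the members as a set.

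**Figure D1:**
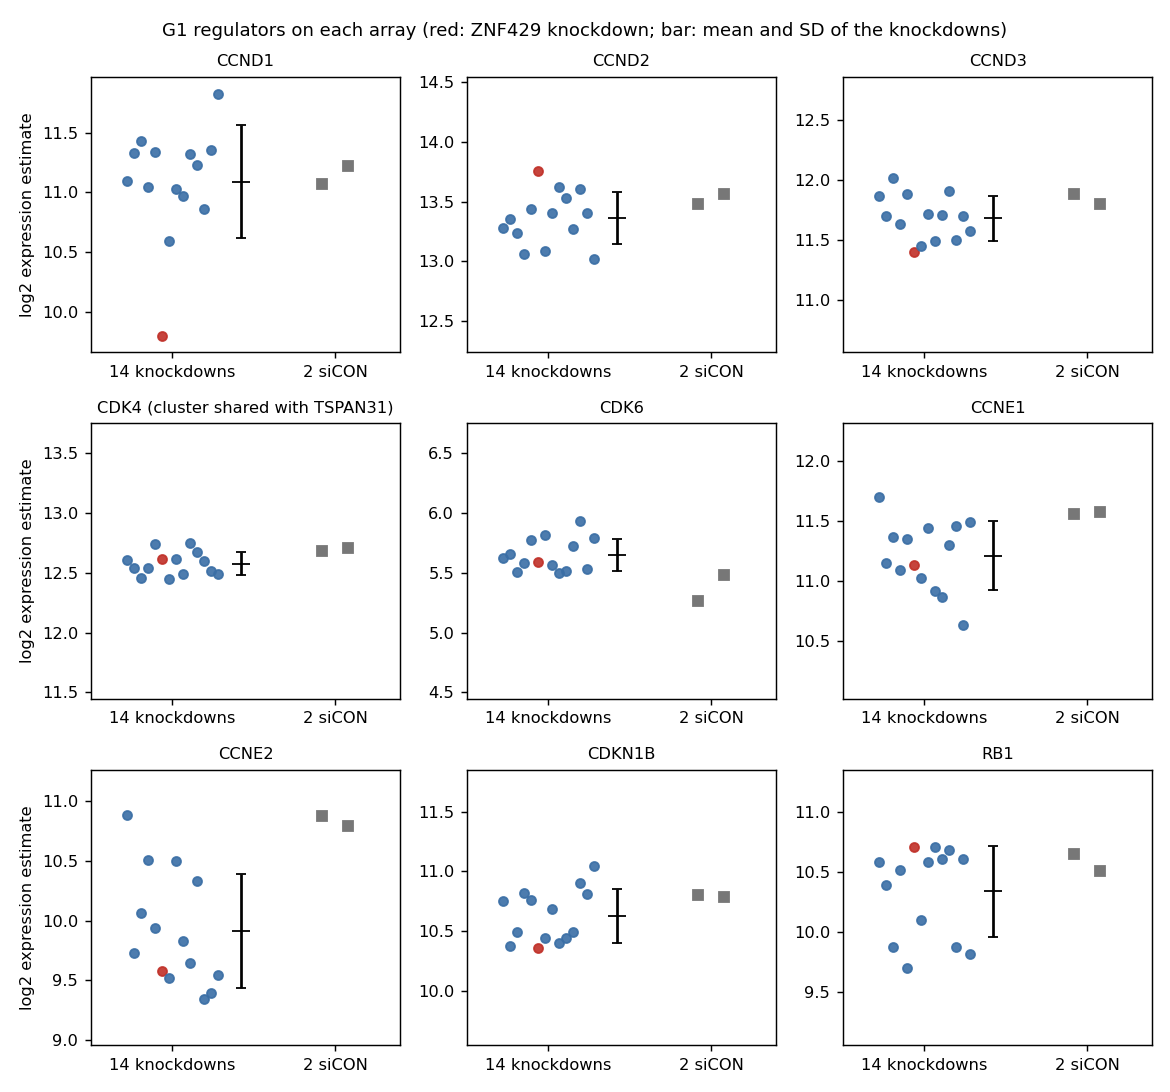
Log2 expression estimate (y axis, with the same span in every panel) of the 9 measured G1 regulators on the 14 knockdown arrays (circles, ZNF429 in red, with their mean and SD as a bar) and the 2 siCON arrays (squares). CCND1 has 1 point far below the rest, at 9.80 on the ZNF429 array, while 13 of the 14 CCNE2 points lie below both siCON arrays.

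Of the D-type cyclins, CCND1 links growth factor and KIT signals to CDK4 and CDK6. CCND1 stood at 9.80 on the ZNF429 array, at a median of 11.16 over the 14 knockdowns and at 11.83 on the RASSF8 array, against 11.07 and 11.22 on the siCON arrays. The next lowest knockdown, ZNF431, was at 10.60 and IGF2R at 10.86. The other 11 knockdowns lay at 10.97 or above, so the groups overlapped, with 6 knockdowns below both siCON arrays, 7 above both and 1 between them.

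The CCND1 value on the ZNF429 array differed from the siCON mean by -1.35, which is 39.3% of the siCON level. The 2 siCON arrays differed by 0.15 (siCON 2 minus siCON 1). Against the other 13 knockdowns, which averaged 11.19 ± 0.305 (SD), the difference was -1.39, or -4.55 of their SDs. Ranked by this difference among all clusters, CCND1 took rank 7 from the lowest. On that array 0.513% of all clusters lay at least 1 below the siCON mean. These values chose the gene and array and support nothing further.

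The CCND1 symbol also stands on 2 dimmer clusters that are shared with LTO1, its neighbour gene. The first was at 6.90 on the ZNF429 array, at a median of 7.28 over the knockdowns, and at 7.06 and 7.12 on the siCON arrays, so that the ZNF429 array was again the lowest of the 16. The second was at 7.64 on the ZNF429 array and at 7.61 and 7.70 on the siCON arrays, which placed the ZNF429 array at rank 9 of 16. The first shared cluster was thus lowest on the ZNF429 array, as 14% of all clusters were, but by far less than the cluster of CCND1 itself, and the second was not low.

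Across all knockdowns CCND1 averaged 11.09 ± 0.472 (SD, n = 14) and siCON 11.15, a limma difference of -0.06 (SE 0.311, adjusted p = 0.924). Fitted without the ZNF429 array, the difference was 0.04 (SE 0.208, adjusted p = 0.913), with a 95% interval of -0.40 to 0.48. It was 0.02 without siCON 2. The sign of the mean thus turned when either of these arrays was left out, and the values with and without the ZNF429 array were smaller than their SE.

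CCND2, an alternative partner of CDK4 and CDK6, stood the other way on the arrays where CCND1 was extreme. It stood at 13.02 on the RASSF8 array, at a median of 13.38, and at 13.76 on the ZNF429 array, against 13.48 and 13.56 on the siCON arrays. Its highest value thus fell on the array with the lowest CCND1, and its lowest value on the array with the highest CCND1. On the ZNF429 array CCND2 was 0.42 above the mean of the other knockdowns, or 2.15 of their SDs. On the RASSF8 array it was at -0.37 from the other knockdowns, where CCND1 was at 0.79 from them. Over the 14 knockdowns the correlation of CCND1 with CCND2 was r = -0.50 (rho = -0.41). It was r = -0.19 over 13 knockdowns without ZNF429 and r = 0.15 over 12 without ZNF429 and RASSF8, so the opposed pattern rested on those 2 arrays. Arrays are single and the genes share each array's RNA and normalization, so these correlations are descriptions. Compared with siCON, CCND2 lay below both arrays in 10 knockdowns and above both in 3, with a limma difference of -0.16 (SE 0.158, adjusted p = 0.564).

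**Figure D2:**
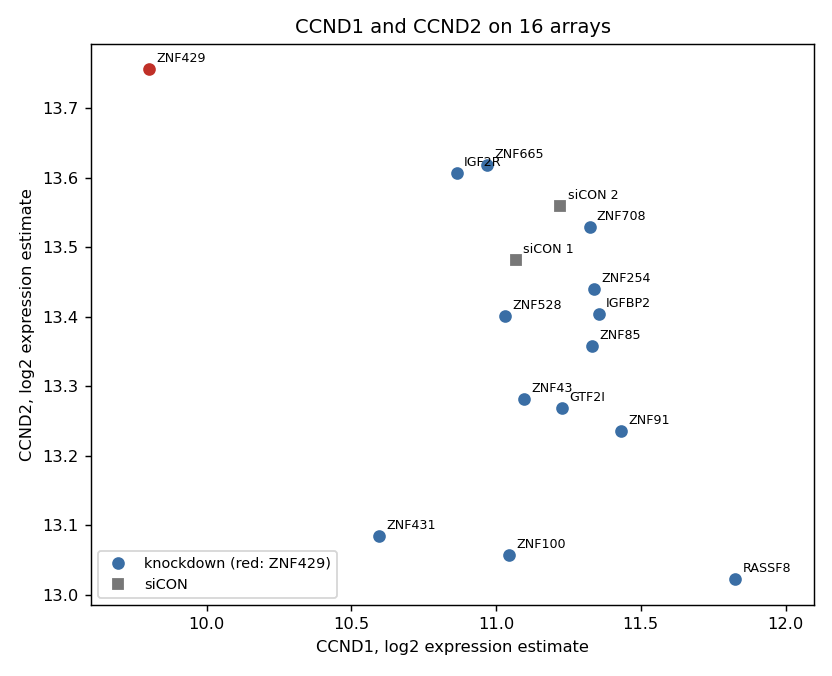
CCND1 (x axis) against CCND2 (y axis), both log2 expression estimates, for the 14 knockdown arrays (circles, ZNF429 in red) and the 2 siCON arrays (squares). ZNF429 (9.80 and 13.76) and RASSF8 (11.83 and 13.02) lie at opposite corners, and the other arrays show no clear slope.

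CCND3, the remaining D-type cyclin, followed CCND1 more than CCND2. It stood at 11.40 on the ZNF429 array, at a median of 11.70, and at 12.01 on the ZNF91 array, against 11.88 and 11.80 on the siCON arrays. The ZNF429 array was again the lowest, with ZNF431 next at 11.44, and 10 of the 14 knockdowns lay below both siCON arrays. Its correlation with CCND1 was r = 0.58 over the 14 knockdowns, r = 0.44 without ZNF429 and r = 0.77 over 12 without ZNF429 and RASSF8. The limma difference from siCON was -0.16 (SE 0.140, adjusted p = 0.511).

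Of the kinases, CDK4 was nearly flat. Its cluster, which TSPAN31 shares, ran from 12.45 on the ZNF431 array over a median of 12.57 to 12.75 on the ZNF708 array, against 12.68 and 12.71 on the siCON arrays. Of the knockdowns, 12 lay below both siCON arrays and 2 above both, but the whole range of the knockdowns was 0.30. Only 2.52% of all clusters had a smaller SD over the knockdown arrays. The limma difference was -0.12 (SE 0.0950, adjusted p = 0.481).

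CDK6, the other kinase of the D-type cyclins, was the only member that lay above both siCON arrays in all 14 knockdowns, as 4.81% of all clusters did. It ran from 5.50 on the ZNF665 array over a median of 5.61 to 5.93 on the IGF2R array, against 5.27 and 5.48 on the siCON arrays. The groups did not overlap, but the 2 siCON arrays differed by 0.21 (siCON 2 minus siCON 1), and the lowest knockdown was close to the higher of them. CDK6 was dim, below the lower quartile of clusters on all 16 arrays, in the range where 75.7% of clusters averaged above siCON. Its level ran with the spread of the array: over the 14 knockdowns its correlation with the SD of all clusters on an array was r = -0.85 and with the array median r = 0.82. The part of these features in the CDK6 difference was not tested. The limma difference was 0.28 (SE 0.115, unadjusted p = 0.0269, adjusted p = 0.291). It was 0.17 without siCON 1 (unadjusted p = 0.301, adjusted p = 0.869) and 0.18 after renewed quantile normalization (unadjusted p = 0.0664, adjusted p = 0.429).

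The E-type cyclins activate CDK2 at the end of G1. CCNE2 had the largest mean difference from siCON of the 9 members by size, although it was not called. It stood at 9.34 on the IGF2R array, at a median of 9.78, and at 10.88 on the ZNF43 array, against 10.87 and 10.79 on the siCON arrays. Thus 13 of the 14 knockdowns lay below both siCON arrays, and ZNF43 lay barely above them. The siCON arrays differed by -0.08 (siCON 2 minus siCON 1), less than the gap to siCON of any of the 13.

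By single array, CCNE2 was at 35.7% of the siCON level with IGF2R silenced, 37.0% with IGFBP2, 40.3% with ZNF431 and 40.9% with RASSF8. It was at 42.0% with ZNF429, 44.0% with ZNF708, 46.6% with ZNF85 and 49.9% with ZNF665. These 8 arrays make up the knockdowns at least 1 below siCON on the log2 scale. Nearer to siCON were ZNF254 with 54.0%, ZNF91 with 58.7% and GTF2I with 70.7%, and nearest ZNF528 with 79.6%, ZNF100 with 79.8% and ZNF43 with 103%. The mean was 9.91 ± 0.475 (SD, n = 14) in the knockdowns and 10.83 in siCON, a limma difference of -0.92 (SE 0.312, 95% interval -1.57 to -0.26). Its unadjusted p of 0.00875 became an adjusted p of 0.225 over all clusters, so CCNE2 was not called. When each knockdown was set against the mean of the other 13 instead of siCON, no CCNE2 value lay 1 or more below, and ZNF43 lay 1.04 above.

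CCNE1 lay below siCON in the same number of knockdowns, by less. It stood at 10.63 on the IGFBP2 array, at a median of 11.23, and at 11.70 on the ZNF43 array, against 11.56 and 11.57 on the siCON arrays. Again 13 of 14 knockdowns were below both siCON arrays and ZNF43 was above. After IGFBP2 (-0.93 from the siCON mean) the lowest were ZNF708 (-0.70) and ZNF665 (-0.65), whereas RASSF8 (-0.07) and IGF2R (-0.10), 2 of the arrays with low CCNE2, were close to siCON. The correlation of CCNE1 with CCNE2 over the 14 knockdowns was r = 0.50 (rho = 0.30). The limma difference was -0.36 (SE 0.198, adjusted p = 0.372).

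Among the inhibitors, CDKN1B holds cyclin E-CDK2 inactive and is a target of SKP2, which marks it for destruction. CDKN1B stood at 10.36 on the ZNF429 array, at a median of 10.59, and at 11.04 on the RASSF8 array, against 10.80 and 10.79 on the siCON arrays. Its lowest and highest arrays were thus those of CCND1. Of the knockdowns 10 lay below both siCON arrays and 4 above both, and the limma difference was -0.17 (SE 0.159, adjusted p = 0.551). The 4 above were RASSF8, IGF2R, ZNF100 and IGFBP2, the last 2 by very little (10.82 and 10.81). Thus 3 of the 4 knockdowns of other genes and 1 of the 10 zinc finger knockdowns were in this group. This split rests partly on those small differences.

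RB1, the pocket protein that restrains E2F, lay in a lower and a higher set of arrays. It stood at 9.70 on the ZNF254 array, at a median of 10.55, and at 10.72 on the ZNF665 array, against 10.65 and 10.51 on the siCON arrays. The lower set held ZNF254, RASSF8, ZNF91, IGF2R and ZNF431, between 9.70 and 10.10. The other 9 knockdowns lay between 10.39 and 10.72 and included the siCON range. RB1 differed from siCON by -0.88 on ZNF254, -0.76 on RASSF8, -0.71 on ZNF91, -0.70 on IGF2R and -0.48 on ZNF431. These arrays were told apart by the RB1 values themselves, so the sets were not compared further. The limma difference over all knockdowns was -0.24 (SE 0.253, adjusted p = 0.586).

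**Figure D3:**
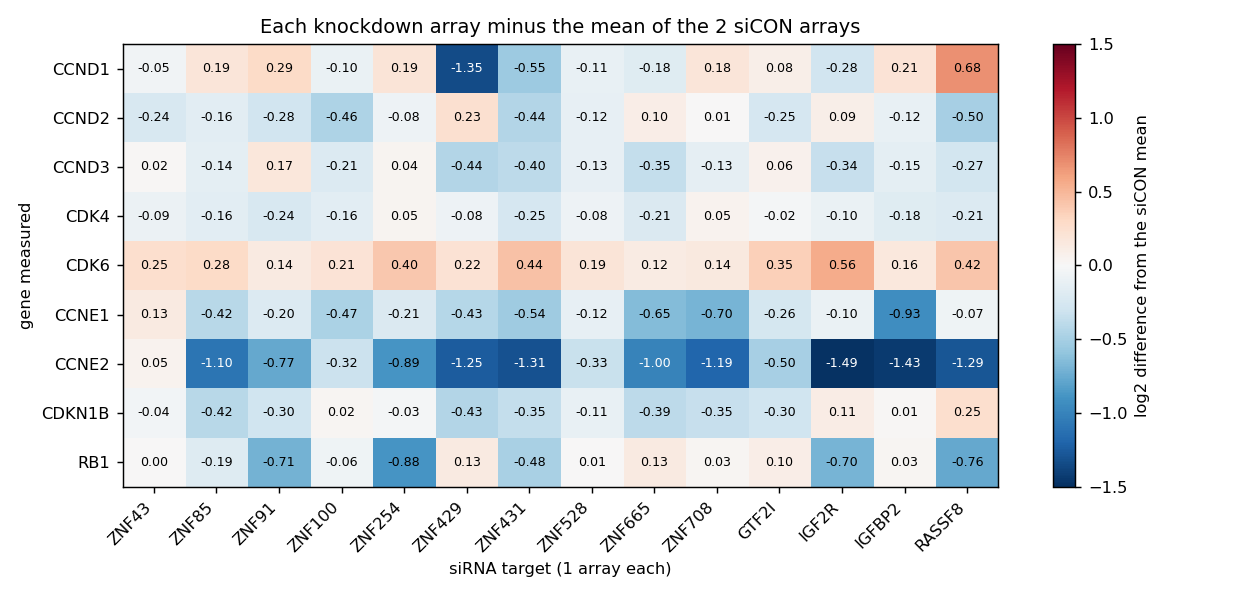
Log2 difference of each knockdown array (columns, 10 zinc finger genes then 4 others) from the mean of the 2 siCON arrays for the 9 measured G1 regulators (rows), with blue for lower and red for higher. CCNE2 is below -1 in 8 columns and CCND1 in the ZNF429 column only, and RB1 is low in 5 columns.

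Several members had their extremes on the same arrays. The ZNF429 array combined the lowest CCND1, CCND3 and CDKN1B with the highest CCND2, and its RB1 was at 10.71 (0.13 above the siCON mean). Of all clusters 14% were at their lowest of the 16 arrays there. By difference from the other knockdowns, CCND3 and CDKN1B ranked 4122 and 4372 from the lowest of all clusters there, against 7 for CCND1. CCND2 ranked 1487 from the highest. Apart from CCND1, these extremes thus did not stand out on that array. The RASSF8 array combined the highest CCND1 and CDKN1B with the lowest CCND2 and a low RB1. The array labelled ZNF43, whose own target was at rank 3 of 16 rather than lowest, held the highest CCNE1 and CCNE2 of the knockdowns. Its differences from siCON ran from -0.24 (CCND2) to 0.25 (CDK6) over the 9 members. Its CCND2 was further from siCON than the mean of all knockdowns (-0.16), and its CDK6 about as far as that mean (0.28).

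Between the 10 zinc finger knockdowns and the 4 others, a comparison that does not use siCON, limma called 0 of the 9 members and 0% of all clusters. CDKN1B averaged 10.55 ± 0.181 in the zinc finger knockdowns (SD, n = 10) and 10.81 ± 0.231 in the others (SD, n = 4), a difference of -0.26 (SE 0.115, unadjusted p = 0.0390, adjusted p = 0.257). At an unadjusted p under 0.05, 12.5% of all clusters were lower in the zinc finger knockdowns. CCND1 differed by -0.32 (SE 0.245, adjusted p = 0.484) and CCNE2 by 0.37 (SE 0.242, adjusted p = 0.419). Both differences were under 2 SE, and the second group held only 4 arrays.

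Other genes of the G1 pathway were taken from 7 lists, and limma called 1 of their measured genes, CTNNB1. The lists were chosen with earlier results of these data known, so their counts are descriptions. The 15 measured E2F target genes of S phase (of 19 listed) all averaged below siCON, with a median difference of -0.42. Of these, 6 had an unadjusted p under 0.05, 0 passed the adjusted test, and 6 lay below both siCON arrays in all 14 knockdowns, as 4.52% of all clusters did. CDC6, which loads the replicative helicase, differed by -0.88 (limma, adjusted p = 0.171). RRM2 and RRM1, the subunits of ribonucleotide reductase, differed by -0.71 (adjusted p = 0.235) and -0.46 (adjusted p = 0.237). The 14 measured pocket protein, E2F, DP and DREAM genes (of 18 listed) likewise all averaged below siCON, with a median of -0.33 and 5 at an unadjusted p under 0.05. In this list E2F8, an atypical E2F repressor, differed by -1.14 (adjusted p = 0.153), E2F5 by -0.68 (adjusted p = 0.199) and RBBP4, a chromatin subunit of DREAM, by -0.60 (adjusted p = 0.326).

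Of the 12 genes of mitosis and proliferation all averaged below siCON, with a median of -0.60, 8 at an unadjusted p under 0.05 and 0 called. CDK1, the kinase that drives mitosis, differed by -0.87 (limma, adjusted p = 0.202). Its partners CCNB1 and CCNB2 differed by -0.64 (adjusted p = 0.237) and -0.73 (adjusted p = 0.257). Of the CDK2 partners and activators, 4 of the 6 measured genes averaged below siCON, with a median of -0.10. CDC25A, the phosphatase that activates CDK2, lay below both siCON arrays in all 14 knockdowns, at 8.37 ± 0.305 (SD, n = 14) against 9.21 and 9.04, with a difference of -0.75 (adjusted p = 0.139). CCNA2, the S phase cyclin, differed by -0.51 (adjusted p = 0.341), and CCNA1, which was dim, by 0.15 (adjusted p = 0.513).

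The 5 other CDK inhibitors had a median of 0.03 and none had an unadjusted p under 0.05. CDKN2B, an INK4 inhibitor, differed by 0.16 (limma, adjusted p = 0.541), CDKN1C, a relative of CDKN1B, by 0.12 (adjusted p = 0.6246) and CDKN2A by -0.02 (adjusted p = 0.895). The 12 measured genes of ubiquitin ligases that act on G1 cyclins and CDKN1B had a median of -0.07, with 2 at an unadjusted p under 0.05, both lower. COPS5, a subunit of the COP9 signalosome, differed by -0.31 (adjusted p = 0.263), SKP2 by -0.45 (adjusted p = 0.264) and GSK3B, a kinase that marks CCND1 for degradation, by -0.23 (adjusted p = 0.435).

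The 19 measured transcription factors known to act on CCND1 or CDKN1B had a median of -0.01, with 11 below siCON by sign. CTNNB1, beta-catenin, a coactivator of TCF factors at genes such as CCND1 in other cells, rose in the knockdowns. It averaged 12.34 ± 0.127 there (SD, n = 14, from 12.08 to 12.56), against 11.70 and 11.63 on the siCON arrays. The groups did not overlap, and the limma difference was 0.68 (SE 0.109, adjusted p = 0.00835). The adjusted p was 0.166 without siCON 1 and 0.505 without siCON 2, with differences of 0.71 and 0.64. ETV1, a lineage factor of GIST, lay above both siCON arrays in all 14 knockdowns with a difference of 0.62 (adjusted p = 0.109), and CREB1 differed by -0.35 (adjusted p = 0.138).

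**Figure D4:**
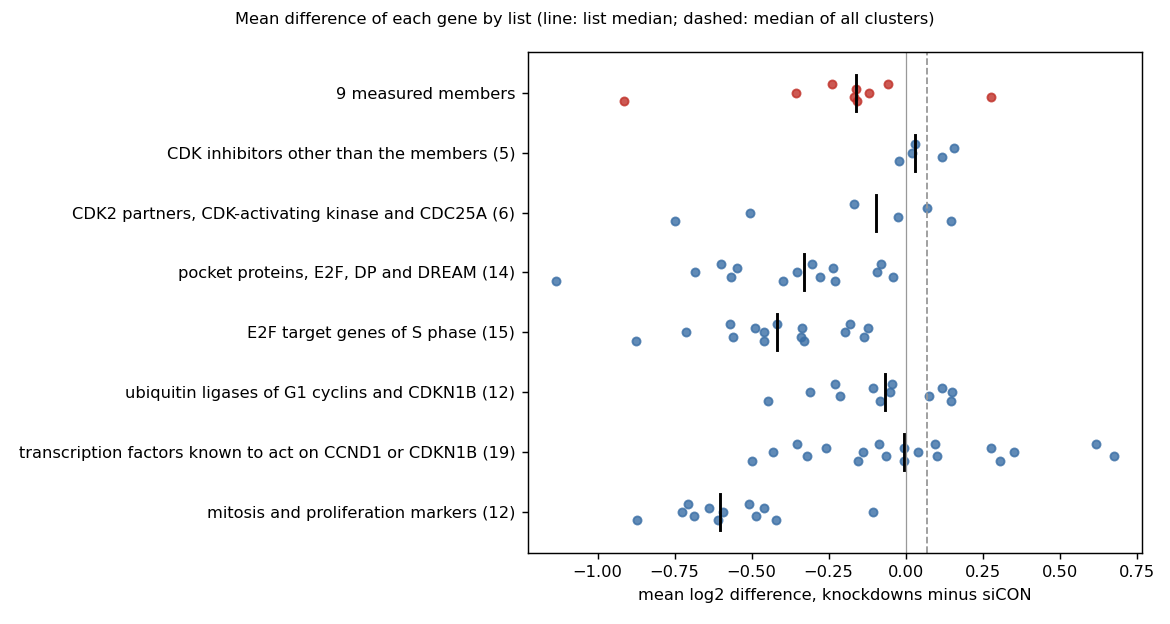
Mean log2 difference between knockdowns and siCON (x axis) of every measured gene (points) in the G1 regulators (red) and 7 pathway lists (blue, number of measured genes in brackets). Short lines are list medians, -0.16 for the members, -0.42 for E2F targets and -0.60 for mitosis, and the dashed line is the median of all clusters at 0.07.

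The knockdowns with low CCNE2 were mostly, but not always, those in which E2F target and mitosis genes stood low. The median difference of the 15 E2F targets was -0.82 on the IGFBP2 array, -0.70 on ZNF431 and -0.60 on IGF2R, against -0.03 on ZNF43 and -0.01 on ZNF254. For the 12 mitosis genes it was -1.30 on IGFBP2 and -1.09 on ZNF431, against -0.09 on ZNF43. Over the 14 knockdowns the correlation of CCNE2 with the E2F target median was r = 0.72 (rho = 0.75) and with the mitosis median r = 0.80 (rho = 0.87). CCND1 showed r = 0.06 and r = 0.09 with these medians, and the ZNF429 array, at -0.38 and -0.68, did not stand out from them. ZNF254 departed from the CCNE2 pattern, with CCNE2 at -0.89 but the E2F targets near siCON, while its mitosis median was -0.32. ZNF708 departed too, with CCNE2 at -1.19 and the E2F target median at -0.26. On GTF2I and ZNF91 the E2F target medians were lower (-0.41 and -0.43), with CCNE2 nearer siCON (-0.50 and -0.77). A bulk array cannot tell fewer cells in S phase or mitosis from less RNA of these genes per cell, and the genes share each array's RNA. CCNE2 tracked the spread of the arrays less than CDK6 did (r = 0.20 with the SD over clusters).

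**Figure D5:**
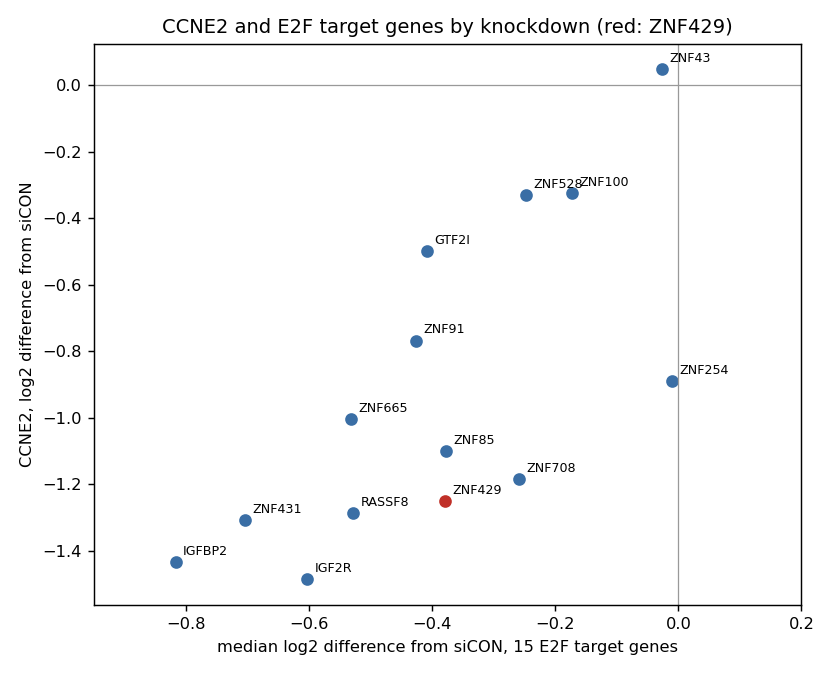
CCNE2 (y axis) against the median of 15 E2F target genes (x axis), both as log2 difference from the siCON mean, for the 14 knockdowns (ZNF429 in red). IGFBP2, ZNF431 and IGF2R lie lowest on both axes and ZNF43 next to siCON, while ZNF254 lies at -0.89 for CCNE2 and -0.01 for the targets.

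Because the E-type cyclins and the S phase genes are classical E2F targets, promoter windows from 250 bases before to 50 bases after the start, as listed by RefSeq for GRCh38.p14, were searched for the E2F letters TTTCCCGC, TTTCGCGC, TTTGCCGC and TTTGGCGC on both strands. Windows were searched for 7 members, the unmeasured CDKN2C among them, and none held these letters. No window of CCND1, CCND2 or CCNE2 was searched. The RB1 window (chr13:48476200-48476499) lies at a listed start that was not checked to be the main start of the gene. Of all genes with a window 3.99% held the letters, against 68.8% of the 16 E2F target genes and 37.5% of the 16 pocket protein, E2F and DREAM genes. The E2F target list was written as known targets, so a high share came with the choice of genes. The 7 members are too few to be set against 3.99%. The absence of exact letters says nothing about E2F binding, and the letters overlap on the 2 strands in MCM6. The 250 bases upstream of the CCNE1 start (chr19:29811741-29811990, plus strand) are shown as the member window next to the E2F targets, followed by stretches around the letters, in capitals, of CDC25A (chr3:48188429-48188486, minus strand), E2F1 (chr20:33686373-33686443, minus strand), RBL1, a pocket protein (chr20:37095981-37096048, minus strand) and MCM6, a subunit of the replicative helicase (chr2:135876497-135876620, minus strand).
CCNE1: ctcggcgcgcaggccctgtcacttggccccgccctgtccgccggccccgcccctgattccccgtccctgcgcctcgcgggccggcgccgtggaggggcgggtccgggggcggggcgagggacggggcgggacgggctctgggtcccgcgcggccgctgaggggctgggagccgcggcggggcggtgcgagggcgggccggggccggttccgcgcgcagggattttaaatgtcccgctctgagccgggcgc
CDC25A: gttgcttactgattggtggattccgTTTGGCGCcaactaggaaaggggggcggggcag
E2F1: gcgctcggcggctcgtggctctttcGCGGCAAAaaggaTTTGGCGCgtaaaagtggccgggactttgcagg
RBL1: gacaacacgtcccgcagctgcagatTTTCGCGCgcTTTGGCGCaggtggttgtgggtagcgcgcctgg
MCM6: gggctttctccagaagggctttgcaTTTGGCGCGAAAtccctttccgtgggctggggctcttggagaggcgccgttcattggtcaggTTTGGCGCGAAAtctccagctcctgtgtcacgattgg

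In these knockdowns CDC25A differed from siCON by -0.75, E2F1 by -0.35, RBL1 by -0.40 and MCM6 by -0.42, and CCNE1 by -0.36 (limma, adjusted p from 0.139 to 0.387, none called). E2F1, RBL1 and MCM6 were named after their values were seen, from lists whose measured genes all averaged below siCON. The shared sign therefore says nothing about the letters, which CCNE1 lacked. Whether the letters relate to these differences was not tested.

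The genes whose pattern was most like that of CCND1 depended on the ZNF429 array. Over all 16 arrays the highest Pearson correlations were with B4GALT5 (r = 0.85), EXD1 (r = 0.80), NAT8L (r = 0.79), LBX1 (r = 0.77) and ASRGL1 (r = 0.76). The most opposed were FBXO30 (r = -0.81), ZNF420 (r = -0.80), TBC1D19 (r = -0.79), RDH10 (r = -0.78) and ZNF502 (r = -0.77). B4GALT5, a galactosyltransferase, was at 9.01 on the ZNF429 array, against 10.08 ± 0.194 on the other knockdown arrays (SD, n = 13) and 10.34 and 10.60 on the siCON arrays. RDH10, a retinol dehydrogenase, was at 12.13 there, against 11.42 ± 0.356 on the others and 11.35 and 11.28 on siCON. Over the 15 arrays without ZNF429 the highest were TLCD1 (r = 0.82), SH3TC1 (r = 0.80), PROSER1 (r = 0.78), PDZD8 (r = 0.78) and NAA20 (r = 0.77). The most opposed were then CACNA1D (r = -0.86), ATG2B (r = -0.84), ZNF502 (r = -0.84), PARD3B (r = -0.82) and XRCC6 (r = -0.82). Of the 20 places only ZNF502 held one in both rankings, so the likeness over 16 arrays was mostly the ZNF429 array.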

How the data were processed

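The log2 expression estimates were deposited by the authors after RMA normalization with the oligo package and summary of the core probes per transcript cluster. Tool versions are not given, and hg19 is the build in the submitters' processing notes. The values were not transformed again, and 0 per-sample columns were left out. Symbols were looked up in a platform annotation, where 14432 clusters had 1 symbol, 2408 several and 5171 none. A gene was shown by its cluster with 1 symbol and the highest mean, and CDK4 by its shared cluster.

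The comparison of knockdowns with siCON was fitted with lmFit and eBayes of limma (3.58.1, in R 4.3.3) across every cluster, and p-values were adjusted by Benjamini-Hochberg with calls at 0.05. The 14 knockdowns formed the group, so their spread is the error, and the 2 siCON arrays limit the precision. The fit was tested on simulated data. Single arrays were described by their difference from the siCON mean, without a test. Descriptions and plots were made with matplotlib 3.10.9, pandas 2.3.3, numpy 2.4.6 and scipy 1.17.1 under Python 3.11.15. Named were the members, the 3 genes of each pathway list with the smallest p and any called, and the 5 genes most like and most opposed to CCND1. E2F1, RBL1 and MCM6 were named for their promoter letters after values were seen, and the EPCAM call as a cell type marker. The members and lists were chosen with earlier results of these data known. Alternatives were other scalings, leaving out the dimmest 33.3% of clusters, leaving out each array, the zinc finger knockdowns alone, the mean of a gene's clusters and the methods' t-test.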

Additional observations from a re-analysis of the deposited data

Results flagged for a closer look

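No member value stood apart from its group by Dixon's rule in 17 groups (the members in the zinc finger and in the other knockdowns), where chance flags about 1 in 20 groups. CCND1 in the zinc finger knockdowns was left out, since its value on the ZNF429 array had chosen the gene and array.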

How the results depend on the processing

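No member was called in either comparison under any alternative. The members' differences from siCON kept their direction in all alternatives except for CCND1, which ran from -0.134 to 0.042 when 1 array was left out at a time. CCND1 without the ZNF429 array was -0.012 after median-centring and ran from -0.035 to 0.118 without single arrays. For zinc finger against other knockdowns, leaving out single arrays gave -0.050 to 0.145 for CCND2, -0.039 to 0.096 for CCND3, -0.016 to 0.045 for CDK4, -0.217 to 0.071 for CCNE1 and -0.012 to 0.278 for RB1, and median-centring gave 0.0025 for CCNE1, so these differences have no settled direction. CDKN2A was at 0.020 after renewed quantile normalization. Against the mean of the other 13 knockdowns, 1 pair of member and knockdown instead of 9 lay at least 1 lower. The cause of these shifts was not tested.

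CTNNB1 lost its call when either siCON array was left out, and EPCAM ran from -1.34 to -0.23 between these settings (adjusted p = 0.682 without siCON 2). ETV1 was called after renewed quantile normalization (adjusted p = 0.0427), without RASSF8 (0.0427) and in the zinc finger knockdowns alone (0.0314). Over all clusters 119 calls became 13 without siCON 1, 2 without siCON 2, 77 without ZNF85, 78 without ZNF528 and 64 by the methods' t-test with pooled variance. Between zinc finger and other knockdowns, 0 calls became 2700 without IGFBP2 and 1 without RASSF8. Median-centring changed the split of calls to 34 higher and 80 lower, against 57 higher and 62 lower. No paired analysis was possible because each knockdown was 1 array. The 2 siCON arrays, of different labelled times, set the precision of every difference from siCON, and CDK6 was too dim to be fitted without the dimmest clusters.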
